A study of Homo sapiens with 12 samples.

Results

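MDA-MB-468 cells transfected with an shRNA against SOX9-AS1 were compared with cells given an shRNA against LacZ, a bacterial gene that human cells lack. The SOX9-AS1 gene makes a long non-coding RNA, and its span holds the SOX9 gene on the opposite strand. The members were chosen by their labels and by the count table of this cell line: S1, S2 and S3 are the libraries labelled sh-LacZ (genotype shCONTROL), and S4, S5 and S6 are those labelled as SOX9-AS1 knockdown. The table names the columns of S4 to S6 with the word BLANCO, which the labels leave unexplained. They are 6 of the 12 samples of the series, 3 per group, and the other 6 come from another breast cancer line that is not used here. All cells grew in DMEM with 10% serum, and the labels give 48 h of transfection for each group. Poly(A) RNA was read as paired stranded libraries of 76 bp. The labels do not state how many shRNA sequences were used or whether transfected cells were selected. They do not say either whether the libraries came from separate cultures, so p-values measure only the spread between these libraries, which may be technical.

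MDA-MB-468 is a basal-like breast carcinoma line without oestrogen receptor, progesterone receptor or HER2 amplification, known for amplified EGFR and for loss of the tumour suppressors RB1 and SMAD4. The counts were checked against that description. EGFR held between 35556 and 53622 counts per library (4890 to 5870 CPM, counts scaled to a common library size, here on plain library totals), RB1 10 to 20 counts and SMAD4 2 to 4 counts. PGR, the progesterone receptor gene, had 0 counts in every library, and the basal keratin KRT5 stood at 671 to 1450.4 CPM. Of 10 fibroblast markers 8, of 10 leukocyte markers 9 and of 8 endothelial markers 5 had at most 10 reads in each of the 6 libraries. COL1A2, DCN, LUM and THY1 of the first list, CD3E, MS4A1, CD68 and LYZ of the second, and EMCN and CLDN5 of the third had no read at all, which allows up to 3 counts in a library. Of 9 genes that mark the HEK293 line, a common source of carried-over cells, 6 had at most 10 reads in each library and PAX2 had none. The marker of these lists with the most reads was CD14, a monocyte receptor also seen in epithelia, with 723, 693, 1092, 983, 1011 and 693 reads in S1 to S6. Scaled to depth it had 73.4, 86.4 and 127 CPM in S1 to S3, 142 CPM in S4, and 128 and 97.1 CPM in S5 and S6, highest in S4, and it did not pass without S4 (adjusted p = 0.293; adjusted p = 0.00196 without S3 as well).

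Counts are from the first of the 3 sequencing lanes of each library. Library depth ran from 6941722 to 9790529 counts, with 20265 to 21821 genes detected. The 10 most abundant genes took 7.22% to 9.88% of the counts. Transcripts of the mitochondrial genome took 7.01%, 6.4% and 6.73% in S1 to S3, 6.13% in S4, and 7.93% and 9.27% in S5 and S6, so S5 and S6 lay above the other 4. The library S4 did not lie with S5 and S6. Across 13638 genes its log2 CPM correlated with S1, S2 and S3 at r = 0.983, 0.9852 and 0.9908, against only 0.9578 for S5 and 0.9521 for S6; these values are across genes, which are not independent replicates. S5 and S6 correlated with each other at 0.9903. The first principal component, with 68.7% of the variance, put S1 to S4 between −24.2 and −22 and S5 and S6 at 44.4 and 47.7. On the second component (14.7%) S4 at −23.7 was nearest to S3 at −11.3, with S1 and S2 at 19.9 and 14.7. S4 is also the 1 library of the 6 that has no row in the authors' deposited sample table, where each of the other 5 has 3 lane rows. S4 is called an sh-SOX9-AS1 library by its label, and whether that label is right was not tested. Results are therefore given for S5 and S6 against the controls, with S4 beside them for the genes shown by library and, as a median, for the gene lists. Adding S4 ends the edgeR call of every gene called without it except BEST1, as in SCD, a fatty acid desaturase gene (3.41 ± 0.78, adjusted p = 0.205, with all 6).

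**Figure D1:**
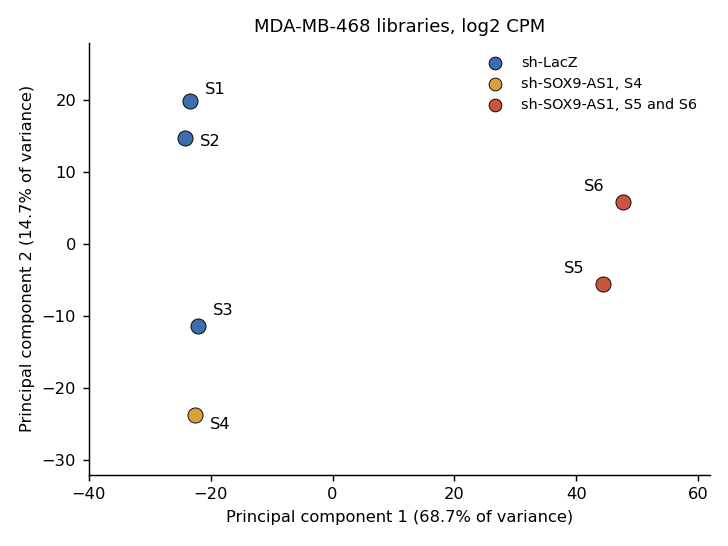
Scores of the 6 libraries on the first 2 principal components of log2 CPM (axes in component units, with the percent of variance), controls S1 to S3 and sh-SOX9-AS1 libraries S4 to S6. S4 sits at −22.5 on the first component beside the controls, while S5 and S6 sit at 44.4 and 47.7.

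The targeted RNA was checked first. SOX9-AS1 (chr17:72034107-72237203, GRCh38, minus strand) had 5.48, 6.605 and 5.94 CPM in S1 to S3, 5.06 CPM in S4, and 4.56 and 5.05 CPM in S5 and S6. All 3 sh-SOX9-AS1 libraries lay below the lowest control, but by less than the test could separate (without S4, log2 fold change −0.32 ± 0.23, adjusted p = 0.274; with all 6, −0.30 ± 0.20, adjusted p = 0.417). SOX9 (chr17:72121020-72126420, plus strand), a transcription factor known from cartilage and from epithelial progenitors, had 208, 184 and 164 CPM in S1 to S3, 137 CPM in S4, and 109 and 101 CPM in S5 and S6. The 3 sh-SOX9-AS1 libraries lay below the controls, S4 between the controls and the other 2. Without S4 its log2 fold change was −0.82 ± 0.10, adjusted p = 2.03e-05, and with S4 included it was −0.68 ± 0.14, adjusted p = 0.205. Since the genes lie on opposite strands of the same span and no source used here says whether counting used the strand, reads of one cannot be told from reads of the other with certainty. The comparisons that follow are between libraries grouped by their shRNA label, and the difference in the targeted RNA itself did not pass. In RNA from a whole culture, fewer cells that hold a transcript and less of it per cell cannot be told apart.

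With all 6 libraries, 1 of 13638 genes passed at an adjusted p under 0.05 (0.00733%): 0 rose (0%) and 1 fell. Unadjusted, 2554 genes had a p under 0.05 (18.7%), and DESeq2 passed 304. The gene was BEST1 (chr11:61949821-61965515, GRCh38, plus strand), which encodes a calcium-activated chloride channel. It had 7.002, 7.602 and 7.45 CPM in S1 to S3, 0.722 CPM in S4, and 0.633 and 0.2803 CPM in S5 and S6. All 3 sh-SOX9-AS1 libraries, S4 among them, were far below all 3 controls (log2 fold change −3.71 ± 0.32, adjusted p = 0.0248, S4 included). The call is lost on leaving out S1 (adjusted p = 0.253), S2 (0.303), S3 (0.251), S5 (0.307) or S6 (0.104) and in limma-voom (0.0647), with log2 fold changes of −3.84 to −3.41 among these, and holds without S4 (1.17e-06). BEST1 overlaps FTH1 on the opposite strand (chr11:61959718-61967660), and some of its reads may be from that gene.

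Without S4, 5676 of 13947 genes passed (40.7%), 2791 up (20%) and 2885 down (20.7%). Of these, 711 rose at least 2-fold (5.1%) and 573 fell at least 2-fold (4.11%), together 1284 (9.21%). At an unadjusted p under 0.05 there were 6786 genes (48.7%). The count falls to 3675 when S5 is left out as well and to 3422 when S6 is, where 1 sh-SOX9-AS1 library is left and is assumed to vary like the controls. Both S5 and S6 lay above all controls in 4267 genes (30.6%) and below all of them in 4326 (31%). S4 against the controls gave 0 calls among 14318 genes in edgeR (0%) and 0 in DESeq2, with 1551 genes at an unadjusted p under 0.05 (10.8%). With 1 library on that side, the spread in this fit comes from the 3 controls alone, and its count turns on them: it is 1 without S1, 7 without S2 and 2513 without S3, and 243 with no filter on low counts. In 37.6% of 13638 genes S4 lay within the range of the controls, in 31.1% above and in 31.3% below it. All of S4, S5 and S6 lay above the controls in 1445 genes (10.6%) and below them in 1508 (11.1%). In what follows "rose" and "fell" stand for genes that passed in the fit without S4 (edgeR, adjusted p under 0.05), and values after ± are standard errors of a log2 fold change. These errors were derived from the edgeR test, as the size of the log2 fold change divided by the square root of its F statistic. S4 was set apart after its levels had been seen to lie with the controls, so these p-values were obtained after a choice made on the same data and leave out the spread that S4 adds. The counts in each gene list stand against 20% up and 20.7% down over all genes. No member of any gene list passed in edgeR with all 6 libraries and the filter on low counts; some did in DESeq2, ACSS2 and ATF4 among them, or with no filter. The comparisons of S4 and of S5 and S6 share the controls S1 to S3. Over all 13947 genes the median log2 fold change was −0.0014, and that of S4 over the control mean −0.0054.

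**Figure D2:**
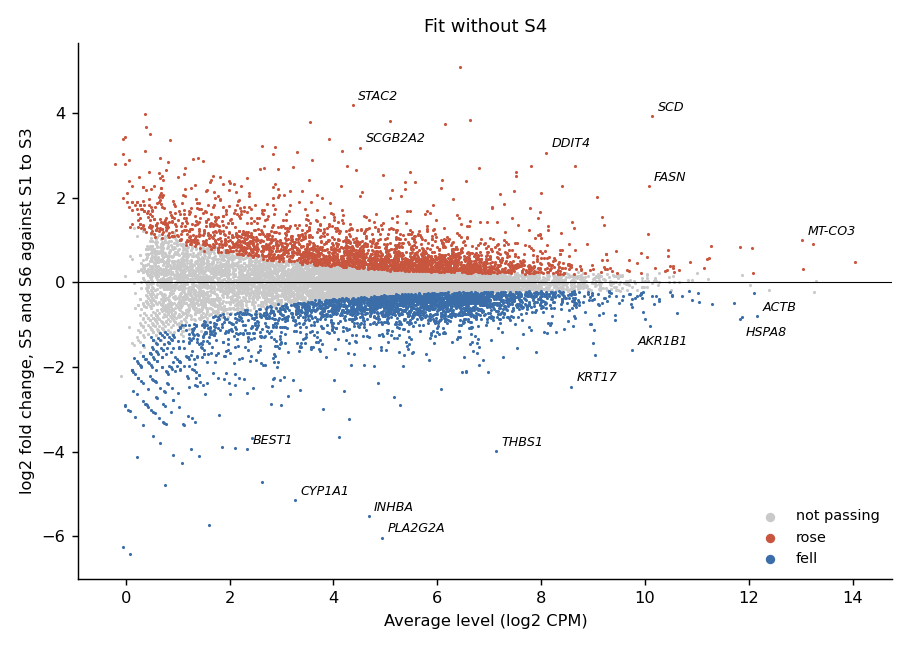
Log2 fold change of S5 and S6 against S1 to S3 for each of the 13947 genes tested without S4, plotted against the gene's average log2 CPM; genes that rose are red, those that fell blue and those that did not pass grey. SCD at 3.94 ± 0.085 and PLA2G2A at −6.03 ± 0.33 are among the labelled genes at the edges.

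Cells make cholesterol from acetyl-CoA by way of mevalonate, squalene and lanosterol. When sterols are low in the endoplasmic reticulum, SCAP carries the SREBP factors to the Golgi, where proteases free the part that enters the nucleus and switches on genes of sterol and fatty acid synthesis; INSIG proteins hold the complex back. SREBP factors bind short promoter elements and act together with factors such as NF-Y, which binds CCAAT boxes. Promoters of 5 of the lipid genes with the largest rises are shown so that these letters can be read beside the expression values. Each run is 5′ to 3′ on the gene's strand, from RefSeq (GRCh38.p14), begins 250 bases before the RefSeq start and stops where the gene begins in GENCODE v29 or at the RefSeq start. Capitals mark CCAAT or its reverse complement ATTGG.

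SCD, stearoyl-CoA desaturase (chr10:100346983-100347123, plus strand): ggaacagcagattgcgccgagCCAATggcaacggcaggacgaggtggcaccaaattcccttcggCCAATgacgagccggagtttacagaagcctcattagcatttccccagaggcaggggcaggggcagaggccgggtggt

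INSIG1, the retention protein of the SREBP complex (chr7:155297628-155297775, plus strand): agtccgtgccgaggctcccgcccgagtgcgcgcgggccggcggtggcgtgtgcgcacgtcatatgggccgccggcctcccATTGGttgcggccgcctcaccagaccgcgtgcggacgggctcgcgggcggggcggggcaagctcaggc

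THRSP, a regulator of lipid synthesis (chr11:78063611-78063860, plus strand): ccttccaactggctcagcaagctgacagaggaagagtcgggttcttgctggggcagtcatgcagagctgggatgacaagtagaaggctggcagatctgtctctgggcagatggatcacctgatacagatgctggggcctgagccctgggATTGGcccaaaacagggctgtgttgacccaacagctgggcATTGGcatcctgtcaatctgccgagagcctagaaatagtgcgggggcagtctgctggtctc

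MVD, an enzyme of the mevalonate pathway (chr16:88663162-88663341, minus strand): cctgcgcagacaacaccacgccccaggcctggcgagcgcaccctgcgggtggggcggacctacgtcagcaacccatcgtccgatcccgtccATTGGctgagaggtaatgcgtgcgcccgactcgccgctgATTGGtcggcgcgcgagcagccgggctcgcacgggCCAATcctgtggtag

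IDI1, the enzyme that follows MVD (chr10:1056705-1056954, minus strand): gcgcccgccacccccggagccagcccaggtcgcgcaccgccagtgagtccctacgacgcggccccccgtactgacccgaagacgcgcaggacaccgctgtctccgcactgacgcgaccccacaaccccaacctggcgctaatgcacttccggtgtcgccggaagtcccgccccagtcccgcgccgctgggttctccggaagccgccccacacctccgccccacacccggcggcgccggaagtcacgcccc

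SCD and THRSP hold 2 such boxes in the 250 bases, MVD 3 and INSIG1 1, while IDI1, whose rise was close to that of MVD, holds 0. Over the cholesterol synthesis enzymes with a promoter in the RefSeq table, 12 of 17 (70.6%) held CCAAT on either strand in the 250 bases before the start. Of 39 lipid genes that rose 27 did (69.2%), against 36.7% of 2051 promoters of all genes that rose, 35.4% of 10266 of all genes tested and 33% of all 27305 promoters. The 39 include the enzymes among the 17 that rose, so these shares are not separate results. No share was taken for lipid genes that did not rise. The letters TCACNCCAC, a form of the sterol element that does not overlap CCAAT, stood in 0 of the 17 enzyme promoters, in 2 of the 39 (5.13%), in 1.17% of the risen genes and in 0.875% of all promoters. A match describes the letters of the window and no binding was measured.

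The enzymes of cholesterol synthesis rose almost throughout: of 22 tested 20 rose, 0 fell and 2 did not pass, with a median log2 fold change of 2.07. In S4 the median of the same enzymes over the control mean was −0.10. At the head of the pathway ACAT2, which joins acetyl-CoA units, had 70.7, 63.8 and 56.5 CPM in S1 to S3, 57.2 CPM in S4, and 355 and 375 CPM in S5 and S6. S5 and S6 were several times higher than the highest control and S4 lay among the controls (log2 fold change 2.52 ± 0.095, adjusted p = 6.84e-11). HMGCS1, an early synthase of the pathway, had 92.4, 79.01 and 51.8 CPM in S1 to S3, 52.2 CPM in S4, and 309.6 and 364 CPM in S5 and S6. The controls themselves spread, S1 highest and S3 lowest, S4 was at S3's level, and S5 and S6 lay above all 4 (2.17 ± 0.16, adjusted p = 6.75e-08).

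The mevalonate steps differed among themselves. MVK, mevalonate kinase, rose by 2.22 ± 0.11 and MVD, the decarboxylase, by 2.75 ± 0.086, while PMVK, the kinase between them, had 47.3, 45.7 and 46.6 CPM in the controls, 47.8 and 43.3 CPM in S5 and S6 and 49.1 CPM in S4 and did not pass (−0.032 ± 0.10, adjusted p = 0.829). MVD itself had 68.9, 67.3 and 68.3 CPM in S1 to S3, 69.5 CPM in S4, and 494 and 427 CPM in S5 and S6, and S4 was at the control level. A divergent neighbour of MVD, the long non-coding RNA gene SNAI3-AS1 (chr16:88663298-88687186, plus strand, against MVD at chr16:88651935-88663161 on the minus strand), begins inside the MVD window printed above and rose as well, with 0.913, 0.374 and 0.698 CPM in S1 to S3, 1.3002 CPM in S4, and 5.31 and 5.33 CPM in S5 and S6 (2.94 ± 0.35, adjusted p = 1.33e-05). IDI1, which isomerises isopentenyl diphosphate, had 78.4, 62.9 and 38.996 CPM in S1 to S3, 35.1 CPM in S4, and 345 and 393 CPM in S5 and S6 (2.61 ± 0.17, adjusted p = 2.86e-08). FDPS, which makes farnesyl diphosphate, rose by 2.01 ± 0.075, and GGPS1, which draws it off toward protein prenylation, by 1.14 ± 0.11.

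From squalene onward FDFT1, squalene synthase, went from 147, 129 and 121 CPM in S1 to S3 to 643 and 656 CPM in S5 and S6, with 134 CPM in S4 (2.29 ± 0.088, adjusted p = 7.56e-11). SQLE, squalene epoxidase and a control step of the pathway, went from 45.8, 33.1 and 24.8 CPM in S1 to S3 to 168 and 198 CPM in S5 and S6, with 22.4 CPM in S4 (2.39 ± 0.16, adjusted p = 3.17e-08). LSS, which closes the ring to lanosterol, rose by 2.13 ± 0.10. Of the steps from lanosterol to cholesterol, CYP51A1 rose by 1.46 ± 0.28 on few reads (adjusted p = 0.0519 without S5 as well), TM7SF2 by 1.49 ± 0.14, MSMO1 by 2.72 ± 0.24, NSDHL by 0.96 ± 0.089, HSD17B7 by 2.55 ± 0.14, EBP by 1.29 ± 0.09 and SC5D by 1.13 ± 0.13. LBR, a nuclear envelope protein with the same reductase activity as TM7SF2, had 99.05, 103 and 76.6 CPM in the controls, 99.6 and 102 CPM in S5 and S6 and 75.3 CPM in S4 and did not pass (adjusted p = 0.43). The last step, DHCR7, had 147, 125 and 93.5 CPM in S1 to S3, 118 CPM in S4, and 860.1 and 784 CPM in S5 and S6, so that S5 and S6 stood several times above the highest other library.

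**Figure D3:**
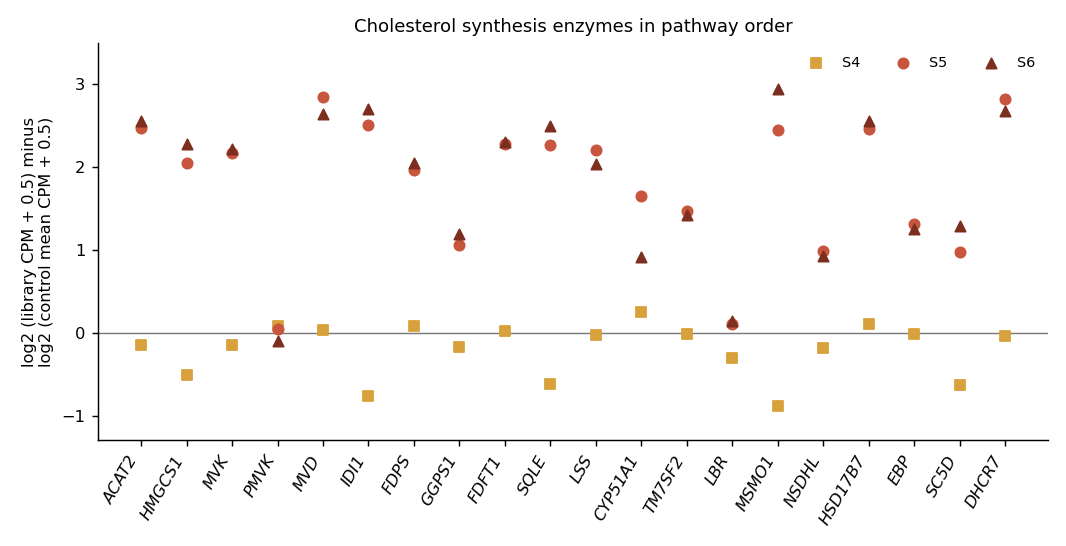
Log2 ratio of S4, S5 and S6 to the control mean (0.5 CPM added to each) for 20 enzymes of cholesterol synthesis in pathway order. S5 and S6 lie above 0.5 for all but PMVK and LBR, whereas S4 lies between −0.89 (MSMO1) and 0.25 (CYP51A1).

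Uptake and sensing genes of the same system rose in part: of 17 tested 9 rose, 1 fell and 7 did not pass (median 0.32, S4 median −0.026). INSIG1 had 23.3, 15.1 and 8.03 CPM in S1 to S3, 6.65 CPM in S4, and 218 and 235 CPM in S5 and S6. The controls ran from 8.03 to 23.3, S4 was under the lowest, and S5 and S6 stood apart from all 4 (3.85 ± 0.22, adjusted p = 3.72e-09). STARD4, a sterol carrier, showed the same order, 18.7, 15.2 and 9.55 CPM in the controls, 59.8 and 73.7 CPM in S5 and S6 and 7.37 CPM in S4 (2.19 ± 0.18, adjusted p = 2.75e-07). The genes of the SREBP factors themselves rose less, SREBF1 by 1.43 ± 0.11 and SREBF2 by 1.12 ± 0.081. The escort SCAP had −0.15 ± 0.10, adjusted p = 0.251, and the proteases MBTPS1 (0.011 ± 0.079) and MBTPS2 (0.044 ± 0.11) did not pass either. NPC1, which moves cholesterol out of lysosomes, rose by 0.55 ± 0.10.

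Genes of cholesterol export, which the LXR receptors drive when oxysterols accumulate, did not move as one. Of 10 tested 4 rose and 1 fell (median 0.17, S4 median 0.13). ABCG1, an exporter to HDL, rose by 1.69 ± 0.25 and the phospholipid enzyme LPCAT3 by 0.78 ± 0.11, while ABCA1, the exporter to apolipoprotein A-I, fell by 1.45 ± 0.39 (adjusted p = 0.116 without S5 as well). Both exporters had few reads. SOAT1, which esterifies cholesterol, had −0.0091 ± 0.12 and did not pass.

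Fatty acid synthesis rose beside the sterol branch, where 12 of 18 members rose, 2 fell and 4 did not pass (median 0.70, S4 median 0.14). SCD, the desaturase that makes oleate, had 161, 158 and 182 CPM in S1 to S3, 189.5 CPM in S4, and 2502 and 2621 CPM in S5 and S6, a 15.3-fold difference without S4 (3.94 ± 0.085, adjusted p = 9.45e-14). FASN, fatty acid synthase, had 414, 439 and 412 CPM in S1 to S3, 462 CPM in S4, and 2270.1 and 1816 CPM in S5 and S6 (2.27 ± 0.091, adjusted p = 1.12e-10). In both genes S4 lay just above the highest control and S5 and S6 several times higher. ACLY and ACSS2, which supply cytosolic acetyl-CoA from citrate and from acetate, rose by 1.43 ± 0.074 and 1.76 ± 0.086. ACACA, the first committed step, rose by only 0.49 ± 0.088. The citrate carrier SLC25A1 (1.04 ± 0.10) and malic enzyme ME1 (0.74 ± 0.088), which feed carbon and NADPH to the pathway, rose too.

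Desaturases and elongases split by family member. FADS2 had 2.54, 3.74 and 2.44 CPM in S1 to S3, 4.62 CPM in S4, and 19.9 and 18.6 CPM in S5 and S6 (2.73 ± 0.20, adjusted p = 9.12e-08) and FADS1, its partner in making polyunsaturated chains, rose by 1.70 ± 0.22, whereas FADS3 had −0.25 ± 0.14 and did not pass. ELOVL5, which lengthens polyunsaturated chains, rose by 0.67 ± 0.085, and ELOVL6, which acts on saturated chains, had 6.901, 5.11 and 8.73 CPM in the controls, 5.31 and 7.01 CPM in S5 and S6 and 6.501 CPM in S4 and did not pass (adjusted p = 0.594). THRSP had 1, 0, 4, 1, 25 and 14 reads in S1 to S6, so that its rise (adjusted p = 0.000312) rests on very few control reads. MID1IP1, its relative and an activator of acetyl-CoA carboxylase, rose by 0.60 ± 0.12.

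In the list for triglycerides and lipid droplets 6 of 16 rose and 5 fell (median 0.10, S4 median 0.093), so that both directions were near or above the shares over all genes. LPIN1, a phosphatidate phosphatase, went from 44.2, 36.1 and 29.3 CPM in S1 to S3 to 149 and 139 CPM in S5 and S6, with 26.005 CPM in S4 (1.97 ± 0.13, adjusted p = 1.68e-08), and LPIN3 rose by 0.95 ± 0.15. PNPLA3, a droplet protein, went from 2.44, 2.12 and 1.28 CPM in S1 to S3 to 26.6 and 28.03 CPM in S5 and S6, with 2.89 CPM in S4, and the hormone-sensitive lipase LIPE rose by 2.01 ± 0.21. Among the falls were PLIN2, the coat protein of droplets in most cells, with 84.9, 88.5 and 96.2 CPM in S1 to S3, 101 CPM in S4, and 47.8 and 48.6 CPM in S5 and S6 (−0.90 ± 0.10, adjusted p = 5.31e-06), and the acyltransferases GPAM (−0.84 ± 0.13), AGPAT3 (−0.60 ± 0.093) and DGAT2 (−0.73 ± 0.14). For PLIN2 S4 lay above every control and S5 and S6 at about the same level as each other below them all.

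Fatty acid oxidation as a list was near the background shares, with 6 of 23 up (3 with S5 also left out, and 3 with S6) and 3 down (median 0.044, S4 median 0.005). Its gate, CPT1A, which loads acyl chains onto carnitine, had 291, 289 and 239 CPM in S1 to S3, 256 CPM in S4, and 133 and 129.6 CPM in S5 and S6 (−1.06 ± 0.10, adjusted p = 9.63e-07), with S5 and S6 alike and well below the other 4. PDK4, the kinase that turns glucose carbon away from the mitochondria when fat is burned, went from 12.1, 8.72 and 8.61 CPM in S1 to S3 to 2.91 and 1.12 CPM in S5 and S6, with 8.38 CPM in S4 (−2.26 ± 0.32, adjusted p = 5.36e-05). The trifunctional enzyme gene HADHA rose by 0.37 ± 0.076 on similar levels in S5 (369 CPM) and S6 (378 CPM).

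Of 22 glycolysis genes 11 rose (7 with S5 also left out) and 5 fell (2 with S6 also left out; median 0.21, S4 median 0.18). Most of the rises were steps from TPI1 to LDHA. PGK1, phosphoglycerate kinase, had 1012, 1042 and 1208 CPM in S1 to S3, 1253 CPM in S4, and 1848 and 1859 CPM in S5 and S6, ENO1, enolase, had 1829, 1922 and 2142 CPM in S1 to S3, 2269.7 CPM in S4, and 2952 and 2833 CPM in S5 and S6 and LDHA, lactate dehydrogenase, had 1629.9, 1499.8 and 1674 CPM in S1 to S3, 1639 CPM in S4, and 2167 and 2353 CPM in S5 and S6. In all 3 genes S5 and S6 lay above the other 4 libraries, and in PGK1 and ENO1 S4 was the next highest. Their log2 fold changes were 0.77 ± 0.084, 0.56 ± 0.081 and 0.49 ± 0.078, and TPI1 had 0.64 ± 0.093. The glucose transporter SLC2A1 (−0.34 ± 0.10; adjusted p = 0.212 without S6 as well), the kinase HK2 (−0.45 ± 0.087) and the lactate carrier SLC16A1 (−0.63 ± 0.10) fell. PFKFB4, which sets the level of fructose-2,6-bisphosphate, rose by 1.42 ± 0.18.

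In the TCA cycle 10 of 25 genes rose and 1 fell (median 0.12, S4 median −0.016). IDH1, the cytosolic NADP-dependent isocitrate dehydrogenase, had 146, 135 and 144 CPM in S1 to S3, 155 CPM in S4, and 329 and 338 CPM in S5 and S6, with S5 and S6 far above any other library (1.23 ± 0.078, adjusted p = 1.49e-08). PDHB, a subunit of pyruvate dehydrogenase, rose by 0.83 ± 0.091 and pyruvate carboxylase PC by 0.80 ± 0.093. Nuclear genes of the respiratory chain changed below the background shares: 5 of 33 rose (2 with S2 also left out, 3 with S5 and 3 with S6) and 2 fell, the median being 0.056 and that of S4 0.17. ATP5F1B, a core subunit of ATP synthase, had 509.5, 531 and 522 CPM in the controls, 529.7 and 510.5 CPM in S5 and S6 and 589 CPM in S4 and did not pass (−0.004 ± 0.074, adjusted p = 0.973).

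Transcripts of the mitochondrial genome, which are transcribed as long precursors, moved unequally. Of 13 genes 7 rose, 1 fell and 5 did not pass (median 0.30, S4 median −0.13). MT-CO2, a subunit of cytochrome oxidase, had 7409, 6622 and 7201 CPM in S1 to S3, 7129 CPM in S4, and 11974 and 14499 CPM in S5 and S6 (0.90 ± 0.088, adjusted p = 1.74e-06). MT-CYB, of complex III, had 3289, 3095 and 3423 CPM in S1 to S3, 3296 CPM in S4, and 5409 and 6187 CPM in S5 and S6 (0.82 ± 0.081, adjusted p = 1.77e-06). S6 was the highest library for both and S4 was among the controls. MT-ND4 had 10354, 9321 and 9951 CPM in the controls, 9145 and 11145 CPM in S5 and S6 and 8878 CPM in S4 and did not pass (0.037 ± 0.089, adjusted p = 0.776), and MT-ND5 fell by 0.25 ± 0.079 (adjusted p = 0.1 without S1 as well, adjusted p = 0.0599 without S2 as well and adjusted p = 0.18 without S5 as well), with S4 lowest of all at 3528 CPM. The share of all reads taken by mitochondrial transcripts was also higher in S5 and S6 (above); its part in these values was not tested.

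Stress pathways moved in different directions. ATF4 is the factor through which amino acid shortage and other stresses act on metabolism genes. Of 23 genes of serine synthesis and the ATF4 response 14 rose (9 with S6 also left out) and 4 fell (median 0.45, S4 median 0.13). ATF4 itself had 493, 505 and 642 CPM in S1 to S3, 682 CPM in S4, and 938 and 901 CPM in S5 and S6 (0.75 ± 0.10, adjusted p = 3.62e-05). S1 and S2 were lowest, S3 and S4 intermediate, and S5 and S6 highest. DDIT4, an inhibitor of mTORC1, followed the same order more steeply, with 52.8, 60.1 and 94.99 CPM in S1 to S3, 108 CPM in S4, and 605 and 559.8 CPM in S5 and S6 (3.07 ± 0.16, adjusted p = 2.17e-09). TRIB3, a pseudokinase of the same response, rose by 1.04 ± 0.083, PSPH of serine synthesis by 0.49 ± 0.082 and MTHFD2 of the mitochondrial folate cycle by 0.50 ± 0.081. Both chains of the large amino acid transporter fell, SLC7A5 by 0.92 ± 0.094 and SLC3A2 by 0.70 ± 0.09. PHGDH, the first enzyme of serine synthesis, had 558, 579.6 and 599.96 CPM in the controls, 708 and 625 CPM in S5 and S6 and 676 CPM in S4 and did not pass (0.20 ± 0.08, adjusted p = 0.0561; adjusted p = 0.0166 without S3 as well, adjusted p = 0.0337 without S6 as well, adjusted p = 0.0498 with RLE size factors and adjusted p = 0.0488 in limma-voom).

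The unfolded protein response of the endoplasmic reticulum did not rise with ATF4. Of 20 genes 1 rose and 6 fell (1 with S5 also left out; median −0.19, S4 median −0.055). HSPA5, the main chaperone of that compartment, had 642, 616 and 614 CPM in the controls, 574 and 565 CPM in S5 and S6 and 636 CPM in S4 and did not pass (−0.13 ± 0.074, adjusted p = 0.164). XBP1, a transcription factor of secretory cells and a luminal marker, was the rise (0.56 ± 0.079, adjusted p = 5.95e-05). DNAJC3, a co-chaperone of HSPA5, was among the falls (−0.54 ± 0.09).

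Chaperones of the heat shock system fell: of 18 tested 15 fell and 0 rose (median −0.44, S4 median 0.13). HSPA8, the constitutive HSP70, had 4364, 4319 and 4581 CPM in S1 to S3, 4154 CPM in S4, and 2302 and 2534 CPM in S5 and S6 (−0.87 ± 0.079, adjusted p = 7.63e-07). HSP90AB1 had 2211, 2302 and 2583 CPM in S1 to S3, 2709.7 CPM in S4, and 1707 and 1711 CPM in S5 and S6 (−0.47 ± 0.082, adjusted p = 0.000365), with S4 the highest library of the 6. HSPH1, an exchange factor, fell by 0.69 ± 0.086 and the mitochondrial chaperonin HSPD1 by 0.41 ± 0.079. The inducible HSPA1A and HSPA1B had −1.04 ± 0.13 and −0.88 ± 0.12, but the genes are near copies whose reads cannot be split with certainty. HSF1, the factor that induces them, had 41.6, 46.1 and 54.6 CPM in the controls, 51.9 and 39.4 CPM in S5 and S6 and 62.3 CPM in S4 and did not pass (adjusted p = 0.784).

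Targets of NRF2, the factor of the oxidative stress response, and genes of iron storage fell as well: 16 of 22 fell, 0 rose (median −0.52, S4 median 0.044). AKR1B1, aldose reductase, had 1229.8, 1205 and 1086 CPM in S1 to S3, 1414 CPM in S4, and 415 and 362 CPM in S5 and S6, S4 being the highest and S5 and S6 far below the controls (−1.60 ± 0.09, adjusted p = 3.95e-09). FTH1, the ferritin heavy chain, had 4803, 4403 and 4358 CPM in S1 to S3, 4352 CPM in S4, and 2474 and 2638 CPM in S5 and S6 (−0.83 ± 0.079, adjusted p = 1.47e-06), with the overlap with BEST1 named above. TXNRD1, thioredoxin reductase, fell by 0.73 ± 0.083, NQO1, a quinone reductase, by 0.59 ± 0.086 and HMOX1, which breaks down haem, by 1.23 ± 0.16. AKR1C2 (−0.99 ± 0.10) and AKR1C1 (−0.75 ± 0.14) share much of their sequence and are uncertain one from the other. TFRC, the transferrin receptor that imports iron, had 693, 689 and 576 CPM in the controls, 629 and 686 CPM in S5 and S6 and 588 CPM in S4 and did not pass (0.0079 ± 0.09, adjusted p = 0.956). Metallothioneins, which bind zinc and copper, had 1 fall and 0 rises among 6, and the fall was MTF1, their regulator (−0.43 ± 0.088, adjusted p = 0.00129).

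The aryl hydrocarbon receptor senses planar ring compounds and switches on enzymes that oxidise them. Of 10 genes of this pathway 9 fell and 0 rose (median −1.15, S4 median −0.10). The receptor AHR had 71.4, 84.7 and 66.8 CPM in S1 to S3, 55.8 CPM in S4, and 34.4 and 30.97 CPM in S5 and S6 (−1.18 ± 0.12, adjusted p = 2.68e-06). Its classical target CYP1A1 had 137, 147, 104, 90, 3 and 3 reads in S1 to S6, with S4 at the control level (−5.16 ± 0.37, adjusted p = 6.75e-08). CYP1B1, a more abundant relative, had 684, 705 and 585 CPM in S1 to S3, 564 CPM in S4, and 296 and 313 CPM in S5 and S6 (−1.11 ± 0.092, adjusted p = 2.91e-07). S4 was the lowest of the first 4 libraries for both AHR and CYP1B1, and S5 and S6 lay well below it. The detoxifying enzymes ALDH3A1 (−2.68 ± 0.46) and UGT1A6 (−2.30 ± 0.33) fell on few reads. ARNT, the receptor's dimer partner, had 0.25 ± 0.10, adjusted p = 0.06 (adjusted p = 0.0231 without S3 as well).

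Of signalling pathways, YAP and TAZ carry signals from cell shape and adhesion to the TEAD factors. Of 20 genes 12 fell and 2 rose (median −0.58, S4 median −0.12). YAP1 had 212, 198 and 173 CPM in the controls, 184 and 195 CPM in S5 and S6 and 168 CPM in S4 and did not pass (−0.037 ± 0.093, adjusted p = 0.78), while WWTR1, which encodes TAZ, fell by 0.63 ± 0.087. CCN2, a matrix protein and a classical target, had 35.9, 24.4 and 17.5 CPM in S1 to S3, 14.9 CPM in S4, and 2.02 and 2.102 CPM in S5 and S6 (−3.66 ± 0.34, adjusted p = 9.18e-07). Controls ranged from 17.5 to 35.9, S4 lay just under them and S5 and S6 far below. CCN1, its relative, went from 128, 129.6 and 122 CPM in S1 to S3 to 57.95 and 62.5 CPM in S5 and S6, with 111 CPM in S4 (−1.07 ± 0.092, adjusted p = 4.25e-07), and AMOTL2 and LATS2, targets that feed back on the pathway, fell by 1.12 ± 0.085 and 0.74 ± 0.13. ANKRD1 differed from these in S4: it had 9.23, 7.602 and 3.26 CPM in S1 to S3, 2.6005 CPM in S4, and 2.66 and 2.803 CPM in S5 and S6 (−1.31 ± 0.38, adjusted p = 0.0123; adjusted p = 0.119 without S5 as well and adjusted p = 0.102 without S6 as well), S4 being as low as S5 and S6 and S3 not far above. TEAD2 rose by 1.03 ± 0.10 and TEAD4 fell by 0.71 ± 0.12.

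In the TGF-beta and activin list 11 of 22 fell (7 with S6 also left out) and 2 rose (median −0.33, S4 median −0.0064). INHBA, the activin A subunit, had 40.3, 46.2 and 35.04 CPM in S1 to S3, 26.3 CPM in S4, and 0.886 and 0.841 CPM in S5 and S6 (−5.53 ± 0.25, adjusted p = 5.44e-10). S4 stood under the lowest control but far above S5 and S6, which were under 1 CPM. The receptor TGFBR2 fell by 0.72 ± 0.10, the signal carrier SMAD3 by 0.80 ± 0.10 and the decoy receptor BAMBI by 1.27 ± 0.13. TGFBR3, the co-receptor betaglycan, rose by 1.48 ± 0.30 on few reads, and LTBP1, which anchors latent TGF-beta, by 0.70 ± 0.11. TGFBR1 had −0.10 ± 0.12, adjusted p = 0.523.

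EGFR, the amplified receptor of this line, had 5442, 5576 and 5859 CPM in S1 to S3, 5872 CPM in S4, and 4947 and 4983 CPM in S5 and S6; S5 and S6 were the lowest 2 libraries, by a margin that did not pass (−0.18 ± 0.074, adjusted p = 0.0602) but does with no filter (adjusted p = 0.015), on library totals (adjusted p = 0.0271) or in limma-voom (adjusted p = 0.0347). Of 10 genes of the family 3 rose and 3 fell, against 20% and 20.7% of all genes (median −0.085, S4 median 0.059). The partners ERBB2 and ERBB3 rose by 0.57 ± 0.10 and 0.52 ± 0.092, LRIG1, which drives receptor breakdown, by 0.87 ± 0.083, and the ligands TGFA, AREG and HBEGF fell by 0.88 ± 0.11, 1.06 ± 0.27 (adjusted p = 0.0655 without S5 as well) and 1.00 ± 0.29 (adjusted p = 0.179 without S5 as well). In the immediate-early and MAPK feedback list 6 of 22 rose (3 with S1, S2 or S6 also left out, 1 with S5) and 8 fell (5 with S6; median −0.17, S4 median 0.14). FOSL1 had 34.1, 38.4 and 52.7 CPM in S1 to S3, 54.2 CPM in S4, and 8.73 and 7.29 CPM in S5 and S6 (−2.37 ± 0.20, adjusted p = 3.64e-07), with S4 the highest of the 6. FOS went the other way, from 4.67, 6.73 and 8.96 CPM in S1 to S3 to 23.8 and 20.6 CPM in S5 and S6, with 9.82 CPM in S4 (1.72 ± 0.21, adjusted p = 1.25e-05). The feedback inhibitors SPRY2 and DUSP5 fell by 1.59 ± 0.13 and 1.06 ± 0.12, and JUN by 1.18 ± 0.11.

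FOXO factors act when PI3K signalling is low. Of 18 targets and feedback genes 8 rose and 5 fell (3 with S1, S5 or S6 also left out; median 0.086, S4 median −0.10). PIK3IP1, an inhibitor of PI3K, had 1.93, 1.99 and 3.61 CPM in S1 to S3, 3.18 CPM in S4, and 22.1 and 20.3 CPM in S5 and S6 (3.08 ± 0.22, adjusted p = 6.84e-08). PIK3R1, the regulatory subunit of PI3K, had 74.7, 66.05 and 63.1 CPM in S1 to S3, 57.4 CPM in S4, and 172 and 194 CPM in S5 and S6 (1.42 ± 0.10, adjusted p = 2.86e-08). In both S5 and S6 stood clear of the other 4. TRIB2 (0.65 ± 0.082), CCNG2 (1.06 ± 0.13) and BCL6 (0.81 ± 0.091) rose, while IRS1, an adaptor of the insulin receptor, and the receptor INSR fell by 1.64 ± 0.23 and 0.55 ± 0.10.

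Of 19 genes of the Wnt pathway 8 fell and 4 rose (median −0.33, S4 median 0.043). CCND1, cyclin D1, went from 329.7, 359 and 373 CPM in S1 to S3 to 147 and 161 CPM in S5 and S6, with 365 CPM in S4 (−1.20 ± 0.088, adjusted p = 7.97e-08). WNT10A, a ligand, fell by 1.37 ± 0.16, the secreted inhibitor DKK1 by 2.25 ± 0.25 and NKD1, a feedback gene, by 0.77 ± 0.12, while beta-catenin CTNNB1 had −0.019 ± 0.073 and did not pass. In the Notch pathway 8 of 16 fell (5 with S6 also left out) and 0 rose (median −0.48, S4 median 0.033). HES2, a repressor of the HES family, had 48.6, 54.3 and 56.1 CPM in S1 to S3, 52.6 CPM in S4, and 8.48 and 7.71 CPM in S5 and S6 (−2.71 ± 0.14, adjusted p = 2.05e-09), and the feedback target NRARP fell by 1.41 ± 0.18 and the receptor NOTCH1 by 1.14 ± 0.13. HES1, the best known target, had 67.8, 65.9 and 59.5 CPM in the controls, 71.2 and 65.5 CPM in S5 and S6 and 59.7 CPM in S4 and did not pass (adjusted p = 0.53).

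NF-kB targets and cytokines fell in 8 of 19 cases and rose in 1 (median −0.41, S4 median 0.074). CSF1, the macrophage growth factor, had 129.6, 147 and 168 CPM in S1 to S3, 183 CPM in S4, and 47.6 and 45.8 CPM in S5 and S6 (−1.66 ± 0.11, adjusted p = 3.8e-08). CXCL8, a neutrophil chemokine, had 83.01, 111 and 113 CPM in S1 to S3, 118 CPM in S4, and 37.1 and 39.9 CPM in S5 and S6 (−1.41 ± 0.13, adjusted p = 1.11e-06). S4 was highest in both, and S5 and S6 lay well under any other library. LIF fell by 1.31 ± 0.12, CXCL1 by 1.28 ± 0.15 and CXCL16 by 0.90 ± 0.12. NFKBIA, the inhibitor that NF-kB itself induces, rose by 0.43 ± 0.13 (adjusted p = 0.102 without S5 as well and adjusted p = 0.0736 without S6 as well), and ICAM1, a leukocyte adhesion protein, had 0.15 ± 0.12, adjusted p = 0.368 (adjusted p = 0.0054 without S3 as well).

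Interferon-stimulated genes rose in 16 of 28 cases (9 with S5 also left out) and fell in 2 (median 0.61, S4 median 0.12). Members of the antiviral set went up by small steps: IFI44 had 6.39, 10.5 and 10.7 CPM in S1 to S3, 9.82 CPM in S4, and 24.4 and 19.1 CPM in S5 and S6 (1.26 ± 0.20, adjusted p = 0.000161). STAT2, which carries the interferon signal with IRF9, had 30.7, 30.3 and 30.4 CPM in S1 to S3, 27.9 CPM in S4, and 50.7 and 44.99 CPM in S5 and S6 (0.65 ± 0.11, adjusted p = 0.000224). MX1 rose by 0.70 ± 0.13, OAS2 by 1.50 ± 0.23 and IRF7 by 1.37 ± 0.17. BST2, which tethers virus particles, had 12.3, 21.6 and 25.96 CPM in S1 to S3, 30.3 CPM in S4, and 53.5 and 41.1 CPM in S5 and S6 (1.26 ± 0.21, adjusted p = 0.000227), so that S4 lay between the controls and the other 2. The strongly inducible IFIT2 and IFIT3 had −0.075 ± 0.29 and 0.068 ± 0.17, and the RNA sensor IFIH1 had 0.065 ± 0.11; none of them passed. IRF1, an early factor of the response, fell by 0.73 ± 0.10. In antigen presentation by MHC class I few genes passed, with 1 rise and 1 fall among 15 (median 0.0075, S4 median 0.25). B2M, the light chain, rose by 0.32 ± 0.08 (adjusted p = 0.0662 without S6 as well).

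**Figure D4:**
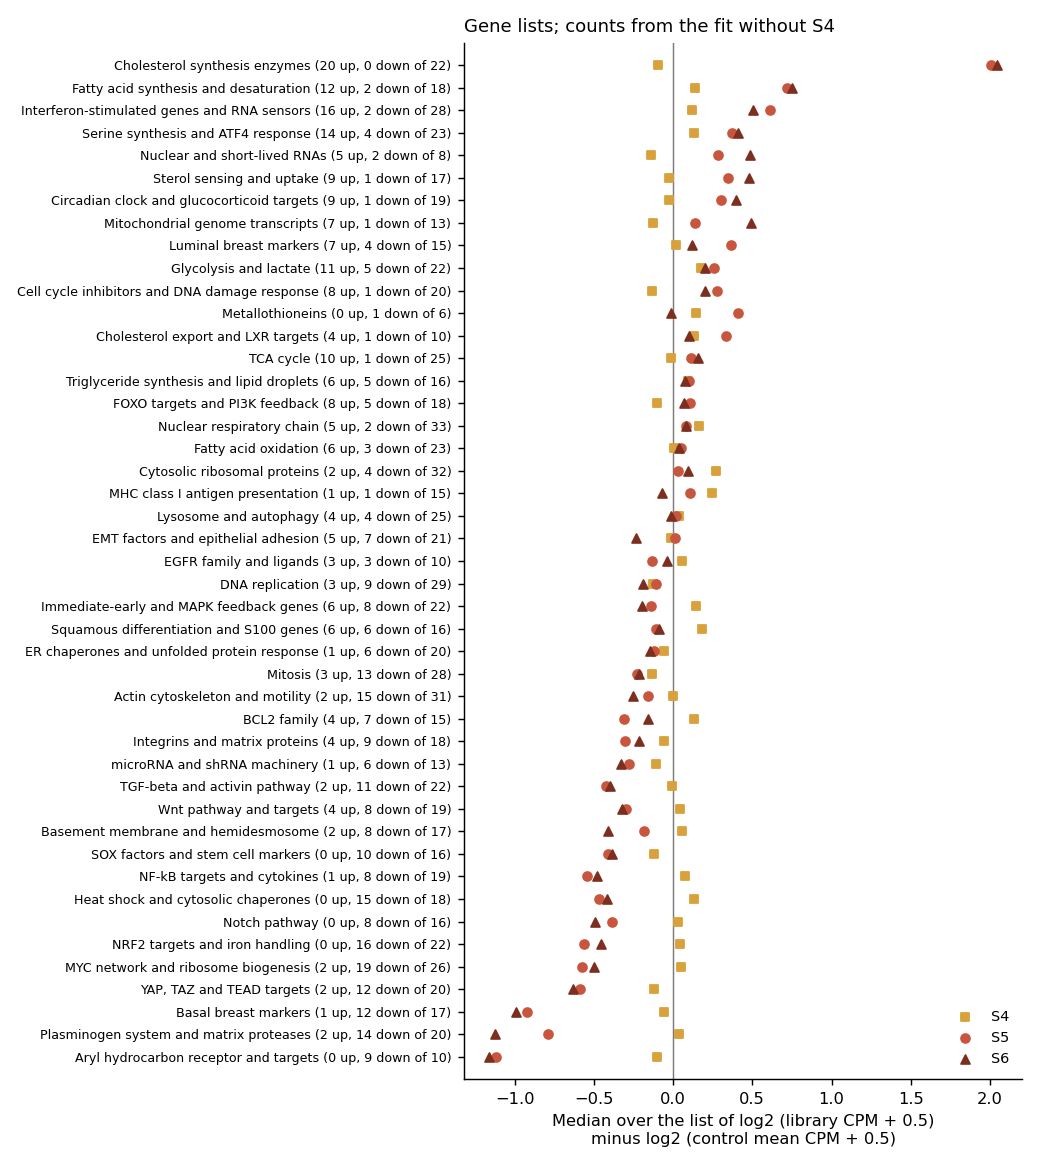
Median log2 ratio to the control mean for S4, S5 and S6 in 45 gene lists, with the numbers of genes that rose and fell without S4. S4 stays between −0.14 (nuclear RNAs) and 0.27 (cytosolic ribosomal proteins), while S5 and S6 reach about 2 for cholesterol synthesis enzymes.

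Many genes of adhesion and invasion fell. In the list of the plasminogen system and matrix proteases 14 of 20 fell and 2 rose (median −0.99, S4 median 0.039). KLK10, a kallikrein of epithelia, had 64.9, 60.6 and 48.7 CPM in S1 to S3, 45.2 CPM in S4, and 8.098 and 7.57 CPM in S5 and S6 (−2.89 ± 0.16, adjusted p = 3.75e-09). MMP7, matrilysin, had 38.7, 38.01 and 37.9 CPM in S1 to S3, 36.3 CPM in S4, and 9.24 and 10.1 CPM in S5 and S6 (−1.99 ± 0.14, adjusted p = 3.64e-08). KLK6, another kallikrein, had 139, 119 and 125 CPM in S1 to S3, 131 CPM in S4, and 30.6 and 28.6 CPM in S5 and S6 (−2.11 ± 0.11, adjusted p = 1.99e-09). S5 and S6 were well under the other 4 libraries in all 3 genes. TIMP2, an inhibitor of these proteases, fell by 1.53 ± 0.16, PLAU, urokinase, by 0.96 ± 0.14 and PLAT, tissue plasminogen activator, by 3.89 ± 0.43 on few reads. TIMP1 (0.87 ± 0.14) and MMP14 (0.81 ± 0.16) were the 2 rises, and the sheddase ADAM10 had 0.13 ± 0.082 and did not pass.

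Of 18 integrins and matrix proteins 9 fell and 4 rose (median −0.26, S4 median −0.058). THBS1, thrombospondin 1, had 280.5, 234 and 151 CPM in S1 to S3, 128 CPM in S4, and 13.5 and 14.4 CPM in S5 and S6. The controls fell into a wide range with S3 lowest, S4 was below S3, and S5 and S6 were far lower again (−3.99 ± 0.23, adjusted p = 4.24e-09). FN1, fibronectin, had 339.9, 351 and 379 CPM in S1 to S3, 378 CPM in S4, and 205 and 205 CPM in S5 and S6 (−0.80 ± 0.082, adjusted p = 2.73e-06). ITGA2 and ITGA5, receptors for collagen and fibronectin, fell by 1.11 ± 0.11 and 1.21 ± 0.19, and the heparan sulfate carrier SDC1 by 0.78 ± 0.09. ITGAV, another integrin chain, had −0.13 ± 0.093, adjusted p = 0.3 (adjusted p = 0.0228 without S3 as well). In the basement membrane and hemidesmosome list 8 of 17 fell (4 with S6 also left out) and 2 rose (median −0.36, S4 median 0.055). LAMB3, the beta chain of laminin-332, had 86.97, 100.2 and 108 CPM in S1 to S3, 118 CPM in S4, and 19.6 and 14.4 CPM in S5 and S6 (−2.52 ± 0.14, adjusted p = 3.58e-09). LAMB1 of other laminins rose by 0.84 ± 0.091 and the linker DST by 1.05 ± 0.085.

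Among 31 actin and motility genes 15 fell and 2 rose (median −0.23, S4 median −0.0028). ACTB, beta-actin, had 5685, 5691 and 5001 CPM in S1 to S3, 4859 CPM in S4, and 3289 and 2994 CPM in S5 and S6 (−0.80 ± 0.085, adjusted p = 3.88e-06). MYH9, non-muscle myosin, had 1876, 1876 and 1837 CPM in S1 to S3, 1854 CPM in S4, and 1212 and 1054 CPM in S5 and S6 (−0.72 ± 0.081, adjusted p = 6.61e-06), and the tropomyosin gene TPM1 went from 789, 803 and 879 CPM in S1 to S3 to 473 and 489 CPM in S5 and S6, with 808 CPM in S4 (−0.78 ± 0.08, adjusted p = 2.88e-06). SRF, the factor that drives many of these genes, fell by 0.80 ± 0.10. S4 lay near the controls in each of the 4. FSCN1, which bundles actin, fell by 1.89 ± 0.27, the GTPase gene RHOB by 1.16 ± 0.17 and the crosslinker FLNA by 0.48 ± 0.082. TPM2 rose by 0.79 ± 0.14, and RHOA (−0.11 ± 0.076) and RAC1 (−0.0076 ± 0.076) did not pass.

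**Figure D5:**
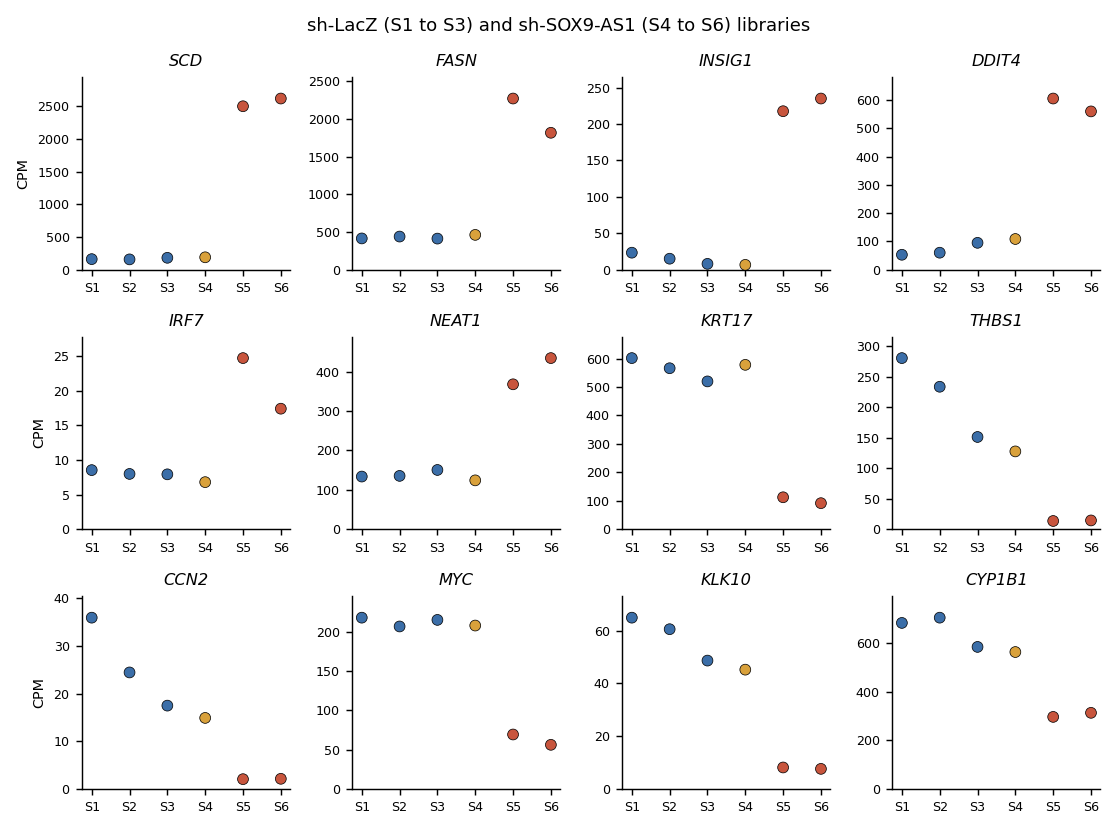
CPM of 12 genes in each library, controls S1 to S3 and sh-SOX9-AS1 libraries S4 to S6, each panel with its own linear axis. S5 and S6 stand apart from S1 to S4 in SCD, FASN, INSIG1 and DDIT4 above and in KRT17, THBS1, MYC and KLK10 below.

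Epithelial adhesion and EMT genes went both ways, with 5 of 21 up (fewer with S5 also left out) and 7 down (median −0.049, S4 median −0.015). Together 57.1% of the list passed, against 40.7% of all genes. VIM, an intermediate filament of mesenchymal cells, had 83.2, 84.2 and 102 CPM in S1 to S3, 106 CPM in S4, and 184 and 189 CPM in S5 and S6 (1.05 ± 0.10, adjusted p = 9.63e-07). CDH3, P-cadherin, rose by 0.61 ± 0.10, and CDH1, E-cadherin, had 142, 139 and 136 CPM in the controls, 148 and 149.7 CPM in S5 and S6 and 122 CPM in S4 and did not pass (0.092 ± 0.081, adjusted p = 0.388). CLDN1, of tight junctions, fell by 0.92 ± 0.12 and DSC2, of desmosomes, by 0.54 ± 0.10. CDH2, ZEB1, ZEB2, SNAI2 and TWIST1, the genes most often read as mesenchymal, had too few counts to be tested.

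Basal breast markers fell in 12 of 17 cases and rose in 1 (median −0.96, S4 median −0.055). KRT17 had 602, 566 and 519.6 CPM in S1 to S3, 578 CPM in S4, and 112 and 91.7 CPM in S5 and S6 (−2.46 ± 0.10, adjusted p = 2.65e-10). KRT5 had 1450.4, 1389 and 1286 CPM in S1 to S3, 1324 CPM in S4, and 685 and 671 CPM in S5 and S6 (−1.02 ± 0.08, adjusted p = 1.79e-07). FOXC1, a transcription factor of basal-like tumours, had 86.4, 85.9 and 66.1 CPM in S1 to S3, 61.5 CPM in S4, and 19.6 and 24.8 CPM in S5 and S6 (−1.85 ± 0.14, adjusted p = 1.63e-07). In all 3 genes S5 and S6 were far below the other 4, and S4 lay within the controls or, for FOXC1, just under them. KRT6B (−1.37 ± 0.11) and KRT6A (−1.68 ± 0.16) also fell, but they are near copies. TRIM29 fell by 0.96 ± 0.087 and caveolin CAV1 by 1.29 ± 0.10. CDH3 was the rise.

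Of 15 luminal markers 7 rose (4 with S5 also left out) and 4 fell (median 0.27, S4 median 0.016). PRLR, the prolactin receptor, had 36.7, 32.2 and 30.03 CPM in S1 to S3, 26.6 CPM in S4, and 63.01 and 71.6 CPM in S5 and S6 (1.02 ± 0.11, adjusted p = 5.44e-06). AGR2, a protein of secretory cells, rose by 1.25 ± 0.19. GATA3, a luminal factor, fell by 0.81 ± 0.12, and KIT, of luminal progenitors, by 1.80 ± 0.34. ESR1 had 6.49, 4.36 and 6.52 CPM in the controls, 7.72 and 7.15 CPM in S5 and S6 and 6.501 CPM in S4 and did not pass, and neither did KRT8 (0.0012 ± 0.081) or FOXA1 (−0.27 ± 0.11; adjusted p = 0.0477 without S1 as well and adjusted p = 0.0412 on library totals). Outside the list, the secretoglobin SCGB2A2, also known as mammaglobin, went from 6.19, 4.98 and 5.24 CPM in S1 to S3 to 46.7 and 54.2 CPM in S5 and S6, with 3.901 CPM in S4 (3.19 ± 0.15, adjusted p = 6e-10), and the small breast mucin MUCL1 from 2.33, 0.748 and 2.33 CPM in S1 to S3 to 14.9 and 15.8 CPM in S5 and S6, with 3.901 CPM in S4 (3.05 ± 0.27, adjusted p = 7.1e-07).

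In the squamous and S100 list 6 of 16 rose and 6 fell (median −0.17, S4 median 0.19). The rises were mostly S100 genes. S100A8 had 311, 309.9 and 345 CPM in S1 to S3, 398 CPM in S4, and 961 and 933 CPM in S5 and S6 (1.55 ± 0.078, adjusted p = 1.48e-09), and its partner in calprotectin, S100A9, had 1659, 1742 and 2160.04 CPM in S1 to S3, 2373 CPM in S4, and 3432 and 3296 CPM in S5 and S6 (0.86 ± 0.10, adjusted p = 7.59e-06). S100A7 rose by 1.16 ± 0.086 and S100A14 by 0.77 ± 0.10, while S100P fell by 1.51 ± 0.12 although S4 had the highest level, 81.9 CPM. IVL and KRT4, of the squamous layers, fell by 1.54 ± 0.18 and 1.24 ± 0.12. CASP14, a caspase of keratinocytes and 1 of the abundant genes of this line, had 2379, 2487 and 3372 CPM in S1 to S3, 3391 CPM in S4, and 4674 and 5218 CPM in S5 and S6 (0.85 ± 0.12, adjusted p = 5.06e-05).

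Of 16 SOX factors and stem cell markers 10 fell (6 with S5 also left out) and 0 rose (median −0.40, S4 median −0.12). ALDH1A3, the enzyme behind much of the aldehyde dehydrogenase activity of breast cells, had 669, 698 and 662 CPM in S1 to S3, 686 CPM in S4, and 241 and 261 CPM in S5 and S6 (−1.43 ± 0.081, adjusted p = 4.06e-09). SOX4 fell by 0.85 ± 0.11, close to the fall of SOX9, and SOX15 by 2.25 ± 0.38. HMGA1, a chromatin protein, fell by 0.46 ± 0.085. ITGA6, a marker of basal progenitors, had −0.12 ± 0.11 and did not pass (adjusted p = 0.0394 without S3 as well).

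Growth genes fell unevenly. In the MYC and ribosome biogenesis list 19 of 26 fell and 2 rose (median −0.52, S4 median 0.052). MYC had 218, 207 and 215 CPM in S1 to S3, 208 CPM in S4, and 69.2 and 56.1 CPM in S5 and S6, so that S5 and S6 stood far below the other 4 libraries, which were alike (−1.77 ± 0.10, adjusted p = 4.07e-09). POLR1B, a subunit of RNA polymerase I, had 113, 111 and 112 CPM in S1 to S3, 119 CPM in S4, and 57.4 and 65.7 CPM in S5 and S6 (−0.87 ± 0.094, adjusted p = 4.97e-06). ODC1, of polyamine synthesis, fell by 1.06 ± 0.10, RRP9 by 1.13 ± 0.14, UTP20 by 0.86 ± 0.10 and nucleolin NCL by 0.51 ± 0.077. MYCN, a relative of MYC, was 1 of the rises (0.79 ± 0.17), and CAD, of pyrimidine synthesis, had −0.11 ± 0.082 and did not pass. The cytosolic ribosomal proteins themselves had 2 rises and 4 falls among 32, below the background shares, with a median of 0.034; in S4 their median was 0.27.

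Of 29 replication genes 9 fell (16 with S3 also left out) and 3 rose (median −0.16, S4 median −0.12). RRM2, ribonucleotide reductase, had 557, 515 and 356 CPM in S1 to S3, 315 CPM in S4, and 265 and 286 CPM in S5 and S6 (−0.79 ± 0.14, adjusted p = 0.000387), S3 and S4 lying between S1 and S2 above and S5 and S6 below. MCM10 (−0.84 ± 0.13) and CCNE1 (−0.69 ± 0.11) fell, while MCM6 rose by 0.38 ± 0.08 and PCNA had 461, 449.5 and 377 CPM in the controls, 409 and 433 CPM in S5 and S6 and 374 CPM in S4 and did not pass (adjusted p = 0.815). In mitosis 13 of 28 fell (8 with S6 also left out) and 3 rose (median −0.21, S4 median −0.13). UBE2C fell by 0.74 ± 0.092, PLK1 by 0.66 ± 0.10 and the proliferation marker MKI67 by 0.46 ± 0.078. CDK1, the kinase that starts mitosis, had 155, 156 and 106 CPM in the controls, 113 and 129 CPM in S5 and S6 and 108 CPM in S4 and did not pass (adjusted p = 0.253; adjusted p = 0.00157 without S3 as well).

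Among 20 genes of cell cycle inhibition and the DNA damage response 8 rose (3 with S6 also left out) and 1 fell (median 0.18, S4 median −0.13). CDKN1A, which encodes p21, rose by 0.64 ± 0.12. MDM2, a ubiquitin ligase of this response, had 0.21 ± 0.11, adjusted p = 0.136 (adjusted p = 0.0467 without S1 as well). In the BCL2 family 4 of 15 rose and 7 fell (3 with S6 also left out; median −0.24, S4 median 0.13). The pro-death genes BIK (−1.57 ± 0.23) and BMF (0.80 ± 0.14) went opposite ways, and BCL2L1, a survival gene, had −0.055 ± 0.094 and did not pass.

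Clock and glucocorticoid-regulated genes rose in 9 of 19 cases and fell in 1 (median 0.30, S4 median −0.026). TSC22D3, which encodes the glucocorticoid-induced leucine zipper protein, had 111, 112 and 124 CPM in S1 to S3, 128 CPM in S4, and 304 and 291 CPM in S5 and S6 (1.36 ± 0.082, adjusted p = 9.02e-09). BHLHE40, a repressor that responds to many signals, had 152, 171 and 221 CPM in S1 to S3, 231 CPM in S4, and 447 and 411 CPM in S5 and S6 (1.24 ± 0.12, adjusted p = 1.21e-06). PER1 rose by 1.48 ± 0.19 and PER3 by 0.72 ± 0.12, whereas FKBP5, another glucocorticoid target, had 66.2, 66.4 and 63.4 CPM in the controls, 66.9 and 72.6 CPM in S5 and S6 and 61.3 CPM in S4 and did not pass (adjusted p = 0.465). In lysosome and autophagy genes 4 of 25 rose and 4 fell, a smaller share each way than the 20% and 20.7% of all genes (median −0.0014, S4 median 0.04). SQSTM1, the p62 adaptor, went from 602, 609 and 619 CPM in S1 to S3 to 321 and 293 CPM in S5 and S6, with 657 CPM in S4 (−0.99 ± 0.079, adjusted p = 2.04e-07), and the protease CTSB fell by 1.16 ± 0.10.

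MicroRNAs and shRNAs are matured by the same enzymes. Of 13 genes of this machinery 6 fell and 1 rose (median −0.31, S4 median −0.11). DICER1 went from 109.8, 102 and 91.1 CPM in S1 to S3 to 78.95 and 80.3 CPM in S5 and S6, with 88.99 CPM in S4 (−0.34 ± 0.10, adjusted p = 0.0109; adjusted p = 0.0538 without S1 as well, adjusted p = 0.0869 without S5 as well and adjusted p = 0.0758 without S6 as well), and DGCR8, the partner of DROSHA, fell by 0.45 ± 0.089. DROSHA had −0.16 ± 0.09 and did not pass. Nuclear and short-lived RNAs rose in 5 of 8 cases (3 with S6 also left out) and fell in 2 (median 0.38, S4 median −0.14). NEAT1, the scaffold of paraspeckles, had 134, 135 and 151 CPM in S1 to S3, 124 CPM in S4, and 368 and 434 CPM in S5 and S6 (1.52 ± 0.09, adjusted p = 7.39e-09). MALAT1, of nuclear speckles, had 139, 119 and 149.6 CPM in S1 to S3, 109 CPM in S4, and 209 and 311 CPM in S5 and S6 (0.93 ± 0.13, adjusted p = 6.48e-05). S6 was highest and S4 lowest for both. SNHG15, a host of small nucleolar RNAs, fell by 0.86 ± 0.089. Summed over the 8 genes the level was 1262, 1236 and 1264 CPM in S1 to S3, 1249 CPM in S4, and 1595 and 1898 CPM in S5 and S6. This sum was higher in S5 and S6 than in the other 4, with NEAT1 and MALAT1 among the 8; its part in the other results was not tested.

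Outside the lists, several genes stood out by size. STAC2, an adaptor of calcium channels, went from 2.64, 2.99 and 2.44 CPM in S1 to S3 to 45.9 and 52.8 CPM in S5 and S6, with 2.17 CPM in S4 (4.19 ± 0.16, adjusted p = 7.56e-11). CPHL1P, a pseudogene related to ceruloplasmin, and CYYR1 rose by 3.12 ± 0.16 and 2.90 ± 0.18. Among the falls PLA2G2A, a secreted phospholipase, had 38.8, 44.5 and 63.4 CPM in S1 to S3, 68.3 CPM in S4, and 0.759 and 0.701 CPM in S5 and S6 (−6.03 ± 0.33, adjusted p = 2.82e-09). In PLA2G2A S4 was the highest library and S5 and S6 were under 1 CPM. FYB1, an adaptor of immune and epithelial cells, had 91, 76, 75, 53, 1 and 4 reads in S1 to S6, MYO7B, a myosin of microvilli, 63, 49, 52, 46, 5 and 1, KRT75 67, 63, 76, 58, 6 and 3, SLC6A20 34, 31, 25, 25, 3 and 2 and SYT14 35, 23, 18, 16, 2 and 2. In each of these 5 S4 stayed near the controls while S5 and S6 held few reads. IGFBP3, a binding protein of insulin-like growth factors, had 1072, 1077 and 1556 CPM in S1 to S3, 1549.9 CPM in S4, and 637 and 719 CPM in S5 and S6 (−0.87 ± 0.13, adjusted p = 0.000122). EEF1A1, an elongation factor and 1 of the most abundant RNAs, rose by 0.32 ± 0.074 and the poly(A)-binding protein gene PABPC1 fell by 0.41 ± 0.073.

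In the fit of S4 against all 3 controls no gene passed. The smallest p-value was that of BEST1 (−3.32 ± 0.43, adjusted p = 0.176), which was also low in S5 and S6. The next smallest p-values were those of C18orf54, RPS29, SRSF1, CEBPB, TPD52, C2orf69 and RPS28, all with an adjusted p of 0.446; these 7 were chosen after their values were seen. C18orf54, a gene of little known function, had 5.58, 5.23 and 4.42 CPM in S1 to S3, 0.722 CPM in S4, and 3.92 and 2.94 CPM in S5 and S6. SRSF1, a splicing factor, had 99.5, 101 and 83.7 CPM in S1 to S3, 55.3 CPM in S4, and 83.4 and 87.9 CPM in S5 and S6. CEBPB, a factor of inflammation and metabolism, had 129, 139.9 and 139.9 CPM in S1 to S3, 199.9 CPM in S4, and 131 and 132 CPM in S5 and S6. In these 3 S4 lay outside the other 5 libraries, below in the first 2 and above in the third. The ribosomal protein genes RPS29 and RPS28 stood at 149 and 161 CPM in S4 against at most 105 and 118 CPM elsewhere. In the fit without S4 none of these 7 passed, with TPD52 nearest (adjusted p = 0.077; adjusted p = 0.0165 without S5 as well and adjusted p = 0.0289 with no filter). Without S3 as well, C18orf54 (adjusted p = 0.046), C2orf69 (adjusted p = 0.0455) and SRSF1 (adjusted p = 0.0279) passed.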

How the data were processed

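The deposited table holds counts per gene that the authors made from paired reads with Trimmomatic 0.39, HISAT2 2.1.0 and featureCounts 2.0.0 on GRCh38, per the submitters' processing notes; these name no options, annotation release or strand setting. Libraries S1 to S6 are the numbers in its column names, which are tied to groups by the words in them and not to single samples. Each library has 3 lanes; only lane 1 was used, and the other 12 of 18 columns were not. Symbols were matched for 60356 of 60675 gene identifiers.

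Genes were kept with filterByExpr (minimum count 10, minimum total 15) and scaled by TMM, and edgeR 4.0.16 (R 4.3.3) quasi-likelihood tests with Benjamini-Hochberg adjustment over all genes kept were fitted for S4 to S6, S5 and S6, and S4, each against S1 to S3. CPM divides by the library total times its TMM factor; ratios for one library use a prior of 0.5 CPM. DESeq2 1.42.0 and limma-voom 3.58.1 were alternatives. The tests were checked on simulated data, all drawn with a spread near that of the fits without S4 and of S4 alone. The fit with all 6 libraries had a wider spread, so the check does not cover it.

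Members, the 49 gene lists and the rule for named genes (the largest folds and differences in CPM, and in each list up to 5 genes of smallest p and 2 abundant genes that did not pass) were chosen with earlier results of these data known; further members were named after their values were seen. Promoters are from RefSeq. Some list members are counted but not reported here by name.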

Additional observations from a re-analysis of the deposited data

How the results depend on the processing

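With all 6 libraries the count of 1 gene at an adjusted p under 0.05 became 0 at 0.01 and in limma-voom, 304 in DESeq2 (226 up, 78 down) and 1441 with no filter on low counts (876 up, 565 down); leaving out 1 library gave 0 to 5676, the last without S4. Without S4 the 5676 genes became 3708 at 0.01 and 1284 at 2-fold or more, and leaving out 1 further library gave 3422 to 6533; the other settings (size factors by RLE, library totals, no filter, a minimum of 1 CPM, DESeq2 and limma-voom) gave 4381 to 5868. For S4 alone the count of 0 became 243 with no filter (79 up, 164 down), and leaving out 1 control gave 1 to 2513, the last without S3. The cause was not tested. Of 250 named genes called without S4, 135 kept the call under every setting, the minimum of 2-fold included, and 0 changed direction in any setting while called. No paired analysis was possible because the columns of the count table carry no replicate number of the labels. Lane 1 on its own is the value reported, and the sum of lanes was not run. Low counts limit some folds, as in THRSP in the controls and PLAT in S5 and S6, and with 2 libraries against 3 no result has a check in a separate experiment.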

Other observations

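Some genes set S4 apart from the controls on the same side as S5 and S6. Of the 13947 genes tested without S4, those with an average log2 CPM of at least 1 were searched. Each of S4, S5 and S6 had to lie at least 0.8 log2 beyond the control mean, with no overlap with the controls. This left 12 genes above and 15 below, chosen after their values were seen and so described without a test. The genes that reached the average level were not counted, so no share is given. Without the limits on size and level, S4, S5 and S6 all lay above the controls in 1445 of 13638 genes (10.6%) and below them in 1508 (11.1%). BEST1 had the largest difference between S4 and the control mean below (−2.68). TIMP3, a matrix-bound inhibitor of metalloproteases, had 13.2, 9.97 and 6.64 CPM in S1 to S3, 4.05 CPM in S4, and 4.05 and 3.504 CPM in S5 and S6. ZNF695, a zinc finger gene, had 7.002, 5.98 and 5.704 CPM in S1 to S3, 2.6005 CPM in S4, and 2.66 and 2.38 CPM in S5 and S6, and ZNF829, another, had 21.01, 21.9 and 17.1 CPM in S1 to S3, 11.3 CPM in S4, and 8.22 and 9.67 CPM in S5 and S6. In these 3 genes S4 lay at or near the level of S5 and S6. SERPINB2, an inhibitor of plasminogen activators, had 3.35, 3.12 and 2.095 CPM in S1 to S3, 1.01 CPM in S4, and 0.3796 and 0.1402 CPM in S5 and S6, LTB, which encodes lymphotoxin beta, had 3.86, 2.99 and 2.21 CPM in S1 to S3, 1.44 CPM in S4, and 1.01 and 0.701 CPM in S5 and S6, and GDAP1, of mitochondrial fission, had 3.75, 2.87 and 2.21 CPM in S1 to S3, 0.722 CPM in S4, and 1.39 and 1.12 CPM in S5 and S6. The fit without S4 called all 3. The search already required S5 and S6 to lie apart from the controls, so these calls are no separate support. The GDAP1 call is lost without S1 as well (adjusted p = 0.0689) and in DESeq2 (adjusted p = 0.0768). It is also lost without S5 or S6 as well (log2 fold changes −1.39 and −1.08), and the LTB call is lost without S6 as well (−1.57).

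Above the controls, MFSD2A, a carrier of lysophospholipids, had 2.94, 4.49 and 4.66 CPM in S1 to S3, 8.96 CPM in S4, and 7.72 and 9.95 CPM in S5 and S6, and S4 lay with S5 and S6. NFATC4, a calcium-regulated transcription factor, had 2.13, 1.99 and 3.14 CPM in S1 to S3, 4.77 CPM in S4, and 16.1 and 15.1 CPM in S5 and S6, and S4 was only a step above the controls. ZSCAN4, known from early embryos and telomere maintenance, had 1.83, 3.61 and 4.42 CPM in S1 to S3, 6.21 CPM in S4, and 9.996 and 8.55 CPM in S5 and S6. RN7SL1, the RNA of the signal recognition particle, had 10.4, 1.99 and 3.73 CPM in S1 to S3, 16.04 CPM in S4, and 76.8 and 80.7 CPM in S5 and S6, so that the controls themselves spread widely. It is not polyadenylated and is near-identical to many copies in the genome, so its reads are uncertain.

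The controls were not alike in every gene, and S3 was nearest to S4. The chi-square per degree of freedom over gene counts was 1.91 between S1 and S2, 2.81 between S3 and S4, 3.89 between S5 and S6, and 7.06 and 4.72 between S3 and the controls S1 and S2. TIMP3, INSIG1 and IGFBP3 are examples: INSIG1 was at 23.3 and 15.1 CPM in S1 and S2 against 8.03 and 6.65 CPM in S3 and S4, and IGFBP3 at 1072 and 1077 against 1556 and 1549.9 CPM. With S3 left out, the count of genes passing for S4 rose, as given above. The spread in that fit comes from S1 and S2 alone, which had the lowest chi-square of any pair.

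By gene type, 2456 of 12229 protein-coding genes rose without S4 and 2665 fell, and 249 of 1181 long non-coding RNA genes rose and 164 fell. By chromosome, median log2 fold changes without S4 ran from −0.10 over 633 genes of chromosome 16 to 0.063 over 567 genes of chromosome 9.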
